A study of Taeniopygia guttata with 48 samples.

Results

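54 genes had lower expression after prenatal testosterone in every one of the 4 combinations of sex and brain region that the study sampled in adult zebra finches. They were chosen by their measured expression. Over 23 RNA libraries a gene had to reach a mean of 5 FPKM, that is, fragments scaled by transcript length and by the number of mapped fragments. Its mean log2(FPKM + 1) in testosterone birds had to lie at least 0.3 below that of oil birds in each combination, called a stratum below. Of the 17475 genes measured, 11006 reached 5 FPKM, and 54 of these, or 0.491%, met the rule in all 4 strata. The mirror-image rule, at least 0.3 higher in every stratum, found 52 genes.

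Testosterone in bird eggs comes from the mother and is deposited in the yolk. It acts on the embryo through the androgen receptor, and brain aromatase can convert it to estradiol. The hypothalamus controls reproduction, feeding and hormone release, and the nucleus taenia, a part of the avian amygdala, takes part in social and sexual behaviour. In both regions of songbirds, androgen receptor, estrogen receptor and aromatase are found.

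The testosterone groups came from eggs that received 500 pg testosterone on the morning of laying, dissolved in peanut oil (5 µl), and the controls from eggs that received the oil alone. The 8 groups were male testosterone hypothalamus, male oil hypothalamus, female testosterone hypothalamus, female oil hypothalamus and the same 4 for the nucleus taenia, each with 3 libraries, 24 in all. All birds were adult when tissue was punched from frozen brain, so each library holds every cell type of the punch, and fewer cells of a type cannot be told apart from less RNA per cell. The labels name no line, age in days or pooling, and do not say whether a bird gave 1 library or more, so that p-values measure only the spread between these samples.

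The genes carry Ensembl-type identifiers without symbols. Of all 17475 identifiers, and so of the 54, 0 matched the zebra finch gene table used (RefSeq, assembly bTaeGut7.mat). Names, functions, positions and sequences of the members are therefore not given, and markers of hypothalamus, nucleus taenia or brain cell types could not be read. 2 identifiers are printed, the gene whose weakest of the 4 differences was most negative and, among the rest, the most abundant one. The other 52 are described by their rank in that order, rank 1 having the most negative weakest difference.

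The rule leaves out replicate 3 of the female testosterone hypothalamus group, a library that stood apart from the others with a median of 7.03 FPKM over all genes, against 10.3 FPKM or more in each of the other 23. With it included, 94 genes met the rule, 45 of them among the 54. Sequencing depth, estimated from the smallest steps between low values and expressed relative to the median library, was 0.588 to 1.25 in the 11 testosterone libraries used (geometric mean 0.864) and 0.544 to 1.33 in the 12 oil libraries (1.04). In females every testosterone library was shallower than every oil library of its region, the hypothalamus depths being 0.588 to 0.844 after testosterone and 1.13 to 1.33 after oil, and those of the nucleus taenia 0.773 to 0.903 and 0.927 to 1.05. The part of depth in the differences was not tested.

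**Figure D1:**
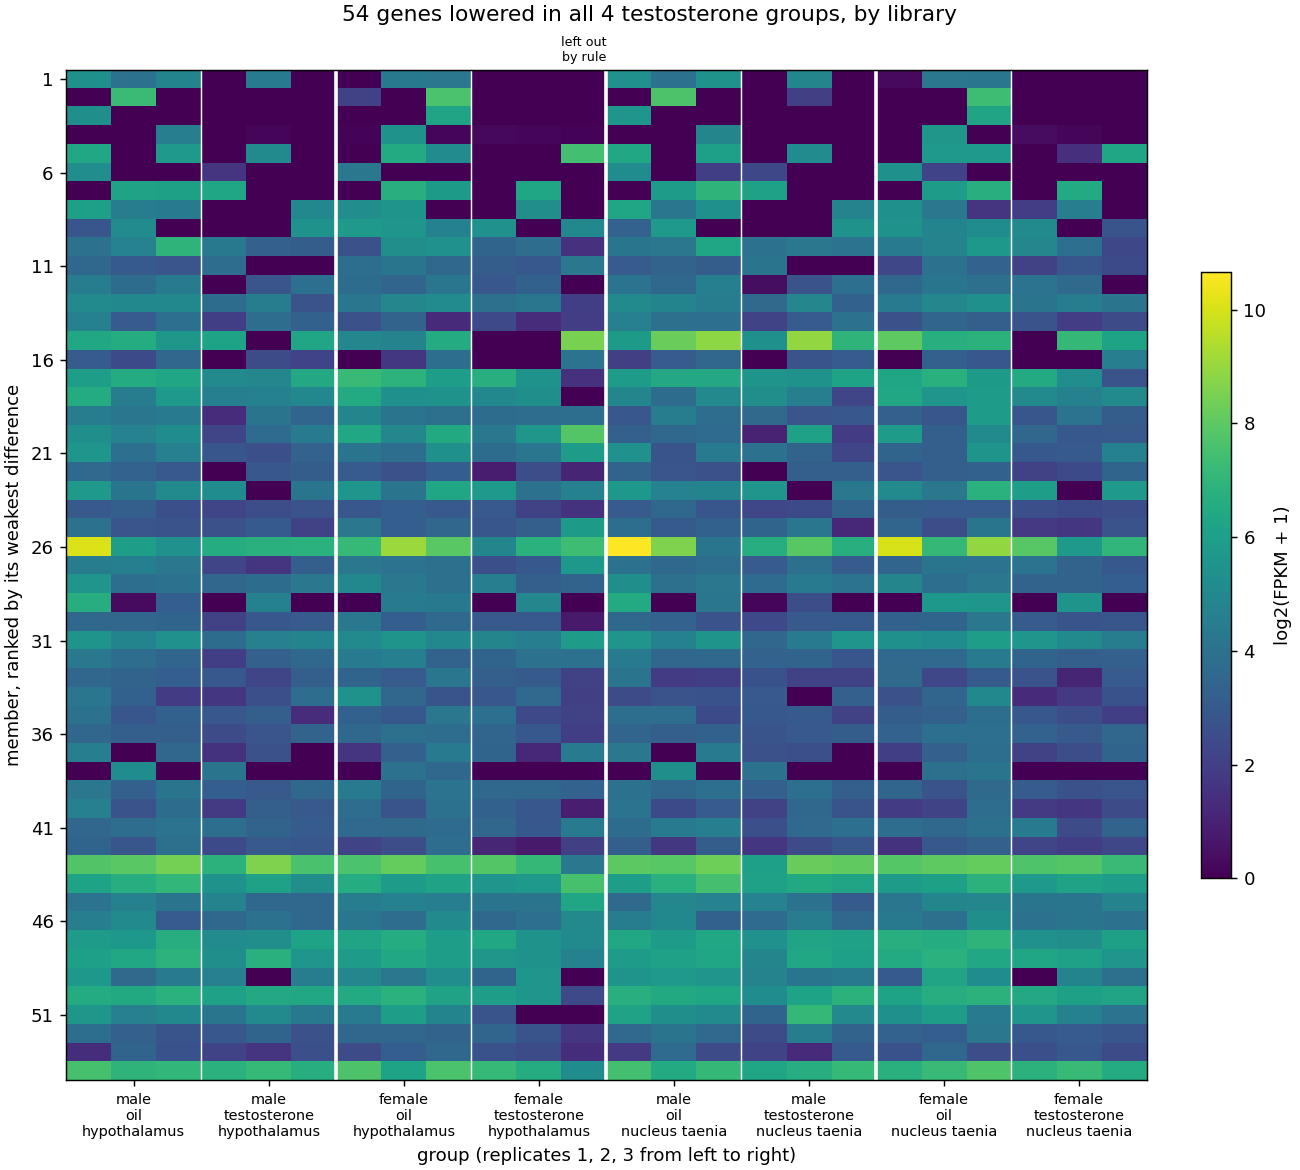
Expression of the 54 genes (rows, ranked by their weakest difference) in the 24 RNA libraries (columns, 3 per group), as log2(FPKM + 1) by colour. Many of the upper rows switch between 0 and a high level from library to library, and the same columns are dark in hypothalamus and nucleus taenia, while rows without such switching lie mostly in the lower part.

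The 4 differences that chose the genes are given as a description. For the male hypothalamus the 54 differences in log2(FPKM + 1) had a median of −0.88 (range −3.33 to −0.30), where the median of all 11006 genes was −0.03. In the female hypothalamus it was −0.64 (−5.42 to −0.30, all genes −0.01), in the male nucleus taenia −0.61 (−3.68 to −0.31, all genes 0.01) and in the female nucleus taenia −0.74 (−2.90 to −0.30, all genes 0.04). Each single requirement was met by many genes. A difference of at most −0.3 was found for 25.6% of all genes in the male hypothalamus, 20.7% in the female hypothalamus, 18.9% in the male nucleus taenia and 18.6% in the female nucleus taenia.

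The edge of the rule fell within a dense run of genes. The weakest of the 4 differences lay between −0.35 and −0.30 in 14 members, and a further 20 genes outside the set lay between −0.30 and −0.25. The last gene inside was at −0.302 and the next one outside at −0.299. The weakest difference was at most −0.5 in 20 members and at most −1 in 7. A further 59 genes passed the threshold in all 4 strata but stayed below 5 FPKM. The members themselves averaged from 5.13 to 310.4 FPKM, with a median of 16.1, where the median of all 11006 genes was 30.9.

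Within each single stratum, testosterone and oil libraries overlapped in most members. The female hypothalamus had 2 testosterone libraries and every other group 3, so separation was easier to reach there. Every testosterone library lay under every oil library for 9 of the 54 genes in the male hypothalamus, 19 in the female hypothalamus, 3 in the male nucleus taenia and 11 in the female nucleus taenia. Over all 11006 genes the shares were 8.41%, 9.6%, 2.18% and 6.41% in the same order, and since the rule used these contrasts nothing is read from the comparison. 24 members overlapped in every stratum, 19 were separated in 1 stratum, 10 in 2, 1 in 3 and 0 in all 4. The same split over all genes is not given here, so these counts only describe the members. Over the 23 libraries pooled, 0 members had every testosterone library below every oil library, and the count over all genes was also 0.

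ENSTGUG00000014813 headed the ranking, with differences of −3.28 in the male hypothalamus, −2.85 in the female hypothalamus, −3.30 in the male nucleus taenia and −2.90 in the female nucleus taenia. In the male hypothalamus it was at 39.8, 15.3 and 27.4 FPKM in oil replicates 1, 2 and 3 and was listed at 0, 19.6 and 0 FPKM in testosterone replicates 1, 2 and 3. The male nucleus taenia repeated this with 40.5, 14.8 and 42.2 FPKM in the oil libraries and 0, 28.6 and 0 FPKM in the testosterone libraries. The groups overlapped in males in both regions, through testosterone replicate 2 alone. In the female hypothalamus the oil libraries held 0, 19.0 and 17.8 FPKM and both testosterone libraries used were listed at 0, as was the third one that the rule leaves out. In the female nucleus taenia the oil libraries held 0.200, 17.9 and 17.2 FPKM and the 3 testosterone libraries were listed at 0. The gene was thus at 14.8 FPKM or more or at 0.200 FPKM or less in each library, and the 2 states went with the replicate number in both regions.

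ENSTGUG00000002417 was the most abundant member, at a mean of 310.4 FPKM over the 23 libraries and rank 26. In the male hypothalamus its oil libraries held 1111, 61.8 and 41.1 FPKM (replicates 1 to 3) and its testosterone libraries 96.3, 107 and 111 FPKM. The testosterone libraries lay within the oil range, and oil replicates 2 and 3 were below all of them, so the difference of −0.44 came from oil replicate 1. In the male nucleus taenia the oil libraries held 1622, 392 and 16.9 FPKM and the testosterone libraries 99.5, 237 and 103 FPKM, a difference of −0.73 with the testosterone libraries again inside the oil range. The female hypothalamus had 141, 531 and 243 FPKM in the oil libraries against 28.9 and 111 FPKM in the testosterone libraries, without overlap and with a difference of −2.19. The female nucleus taenia had 1042, 138 and 488 FPKM against 236, 53.8 and 128 FPKM, with overlap and a difference of −1.80. The library left out by the rule held 163 FPKM, above the lowest female oil hypothalamus library.

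**Figure D2:**
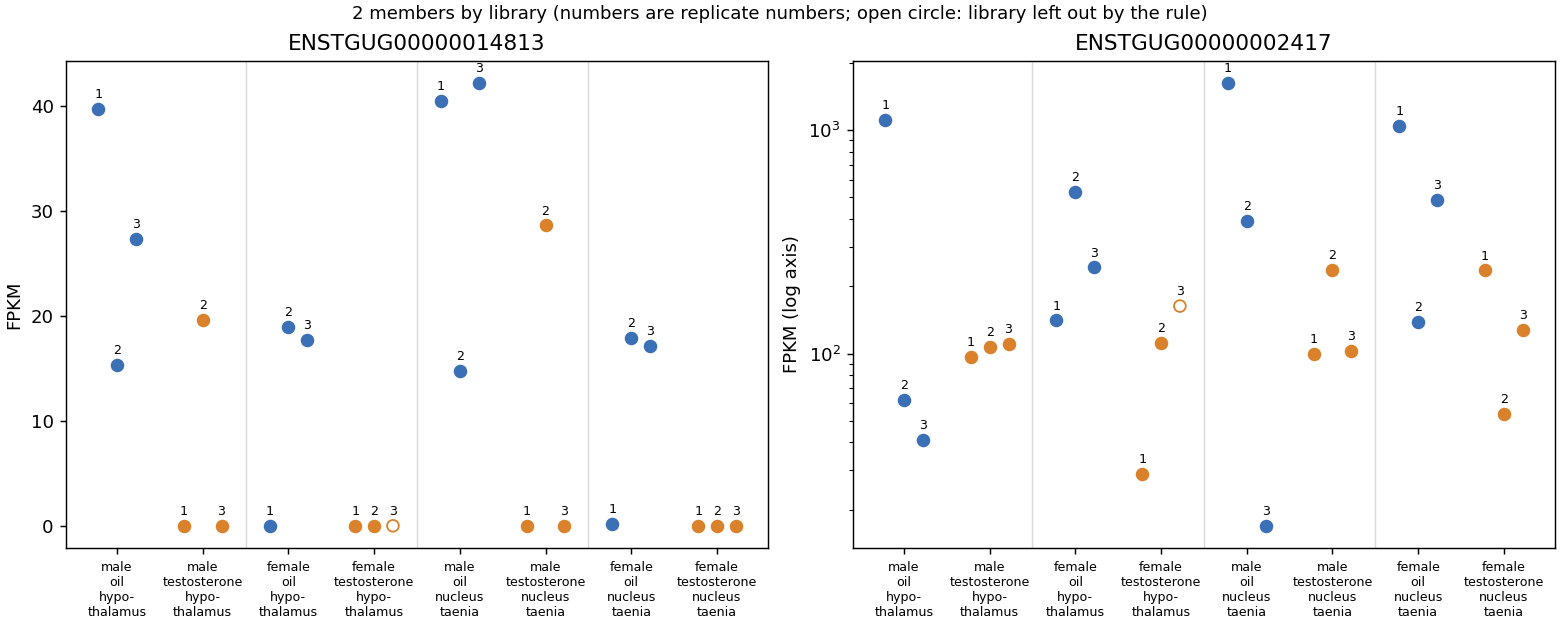
FPKM of ENSTGUG00000014813 (left, linear axis) and ENSTGUG00000002417 (right, log axis) in each of the 24 libraries, by group, with oil in blue, testosterone in orange and the replicate number above each point. The left gene is either near 0 or at 14.8 FPKM and above, and male testosterone replicate 2 is high in both regions, while the right gene spans 16.9 to 1622 FPKM among the oil libraries.

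The members fell into 2 kinds by a description chosen after their values were seen. In 21 of them, or 38.9%, expression was below 0.5 FPKM in at least 1 library and reached 10 FPKM in another. Of all 11006 genes, 424, or 3.85%, had such an on-off pattern. The spread between libraries of a group was correspondingly wide, with a median standard deviation of 2.07 on the log2 scale in the 21 genes, 0.60 in the other 33 and 0.40 over all genes. The rule cut means of 2 or 3 libraries without regard to spread, so widely varying genes meet it more easily. The members' share of on-off genes is therefore not free of the choice, and nothing is read from its excess over all genes.

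The 21 on-off members were off more often in testosterone libraries. Of their values in testosterone libraries, 120 of 231, or 51.9%, were below 0.5 FPKM, against 56 of 252, or 22.2%, in oil libraries, a contrast that the rule itself favours. Per library, 8 to 11 of the 54 members were listed at 0 after testosterone and 2 to 8 after oil. Of all 17475 genes, 14410 to 15006 were above 0 per testosterone library used and 14386 to 15152 per oil library. The shares of low or 0 values over all 11006 genes or all 424 on-off genes were not taken. These counts therefore only describe the members.

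The genes of ranks 2 to 4 rested on few libraries. The gene of rank 2 was high in female oil replicate 3, at 197 FPKM in the hypothalamus and 161 FPKM in the nucleus taenia, and in male oil replicate 2, at 152 and 204 FPKM. In every other library it was at 3.29 FPKM or less. Rank 3 was at 73.6 and 74.9 FPKM in female oil replicate 3 and at 39.2 and 47.1 FPKM in male oil replicate 1, and was listed at 0 in all other libraries of both treatments. Rank 4 was at 41.7 and 49.3 FPKM in female oil replicate 2 and at 22.4 and 28.0 FPKM in male oil replicate 3, and at 0.280 FPKM or less elsewhere. In these 3 genes 1 oil replicate number of each sex carried the signal in both regions, and most oil libraries were as low as the testosterone libraries.

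A hypothalamus and a nucleus taenia library of the same sex, treatment and number are called a numbered pair here, 6 per treatment. An on-off member was called on in a numbered pair when all its libraries used had at least 5 FPKM, and off when all were below 0.5 FPKM. 4 of the 21 genes were on in 0 testosterone pairs, and each of these was on in 2 oil pairs. 6 genes were on in all 6 oil pairs. These counts restate the choice of the genes, which required lower testosterone means, and nothing is read from their direction.

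Libraries with the same number shared their on-off states across the 2 regions. Where both libraries of a same-numbered comparison had a clear state, it was equal in 197 of 204 cases, or 96.6%. Where sex and treatment matched but the number differed, it was equal in 256 of 410 cases, or 62.4%. Over all 424 on-off genes the shares were 84.2% of 3267 cases and 67.3% of 6424. The rule compared group means and did not use the numbers, but it asked for lower means in both regions of each sex. Genes that share their states across the regions meet that more easily, so the members' share is not free of the choice. The labels give the numbers no meaning, and whether they mark the same bird in both regions was not tested.

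**Figure D3:**
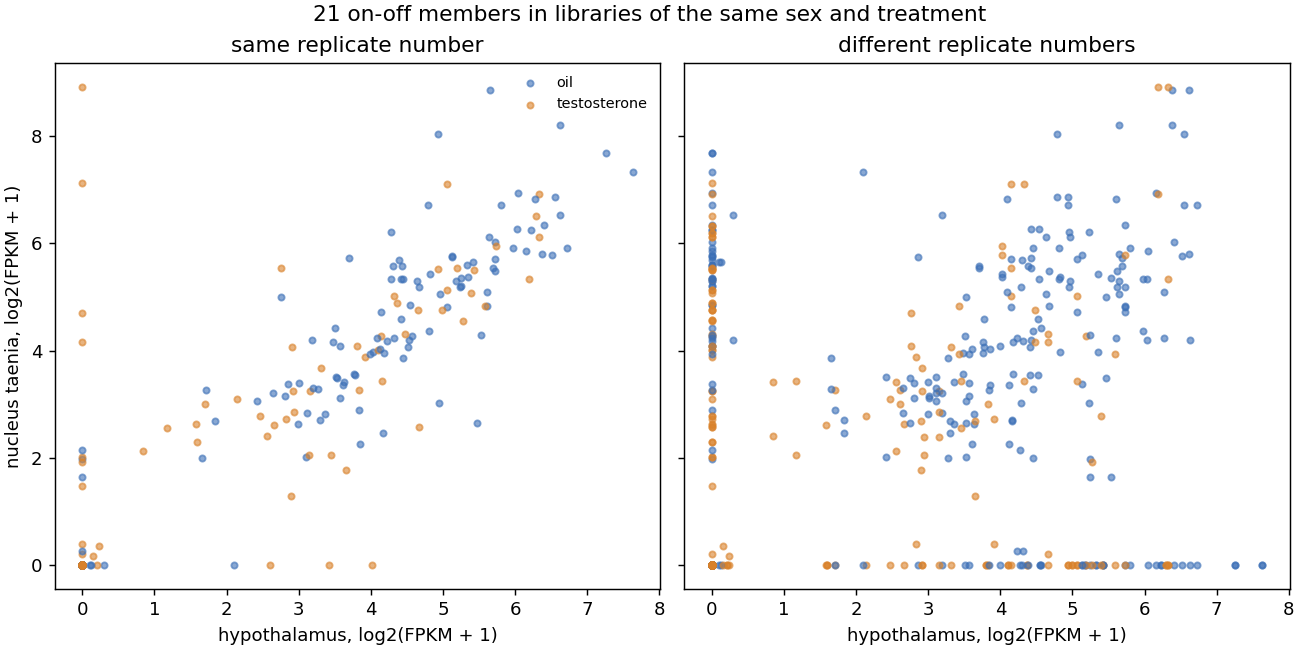
Level of the 21 on-off members in the hypothalamus (horizontal, log2(FPKM + 1)) and the nucleus taenia (vertical, same scale) for libraries of the same sex and treatment, with equal replicate numbers on the left and different numbers on the right, oil in blue and testosterone in orange. With equal numbers nearly all points lie along the diagonal or at the origin (197 of 204 states equal), and with different numbers many lie on an axis, off in one region and on in the other (256 of 410 equal).

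The same held for the deviations of single libraries from their group mean. Across the 54 members, same-numbered hypothalamus and nucleus taenia libraries had a correlation of their deviations of 0.47 to 0.95 in 11 pairs (median 0.79), and differently numbered ones −0.70 to 0.31 in 22 pairs (median −0.41). Across all 11006 genes the 11 same-numbered values were −0.10 to 0.69 with a median of 0.27. Deviations within a group sum to 0, which tends to make values between different numbers negative where same-numbered values are positive. Genes are also not independent replicates. For the 33 members without an on-off pattern the median over the 11 pairs was 0.29. The members did not form 1 tightly varying group, since the mean pairwise correlation of their deviations over the 23 libraries was 0.0575, where that of all genes was 0.00519. It was 0.107 among the 33 members without an on-off pattern and 0.0189 among the 21 with one.

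The other 33 members did not meet the on-off description, and each of them had a value above 0 in each of the 23 libraries. Some still varied widely, as did rank 26, at 16.9 to 1622 FPKM in oil libraries. The mean of their 4 differences had a median of −0.62 (range −1.29 to −0.33), where the 21 on-off members had −1.62. The ratio of the oil median to the testosterone median over all libraries was 1.17 to 2.96, and under 2 in 29 of the 33. Rank 13 had 17.4 to 39.7 FPKM in oil libraries and 5.72 to 29.7 FPKM in the testosterone libraries used, with no overlap in 2 strata. The gene of rank 30 was the only member separated in 3 strata, at 5.55 to 18.5 FPKM after oil (median 10.2) and 3.29 to 7.49 FPKM after testosterone (median 6.78). Even there the ranges overlapped, and its weakest difference was −0.43. Rank 54 closed the list at 72.3 to 209 FPKM after oil (median 143) and 79.0 to 144 FPKM after testosterone (median 111), and the lowest of the 23 libraries was an oil control.

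The library left out by the rule is described here with no test. Of the 54 members, 40, or 74.1%, were lower in female testosterone hypothalamus replicate 3 than the mean of the female oil hypothalamus libraries, as were 50.4% of all genes. The median difference of the members was −1.44 and that of all genes −0.02. Among members, 26 were below every one of the 3 oil libraries, a count for which the share of all genes was not taken. The members were chosen as high in these same oil libraries, and the left-out library shares its number with female testosterone nucleus taenia replicate 3, which the rule used, so nothing is read from these shares. Some members went the other way, and the following were picked after their values were seen. The gene of rank 5 was at 176 FPKM in this library and 79.6 FPKM in female testosterone nucleus taenia replicate 3. It was at 1.76 FPKM or less in the other 4 female testosterone libraries. Rank 15 was at 366 FPKM in this library, against 26.7 to 92.9 FPKM in the female oil hypothalamus libraries. It was listed at 0 FPKM in replicates 1 and 2 of the female testosterone hypothalamus.

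Choosing genes in 3 strata and reading them in the remaining one gave unequal results. The 3 strata always included the other region of the same sex, whose same-numbered libraries shared on-off states with the stratum read. Of 74 genes lower in the other 3 strata, 54, or 73.0%, were also at most −0.3 in the male hypothalamus, where 25.6% of all genes were. For the female hypothalamus it was 54 of 143, or 37.8%, against 20.7% of all genes, and for the female nucleus taenia 54 of 113, or 47.8%, against 18.6%. For the male nucleus taenia it was 54 of 455, or 11.9%, below the 18.9% of all genes, and the median difference of the 455 there was 0.23. The chosen genes had medians of −0.59 in the male hypothalamus, −0.17 in the female hypothalamus and −0.24 in the female nucleus taenia. Widely varying genes pass −0.3 more often, and the members' median within-group standard deviation was 0.84 against 0.40 over all genes. The shares of all genes are therefore no level expected by chance, and no excess is read from them.

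**Figure D4:**
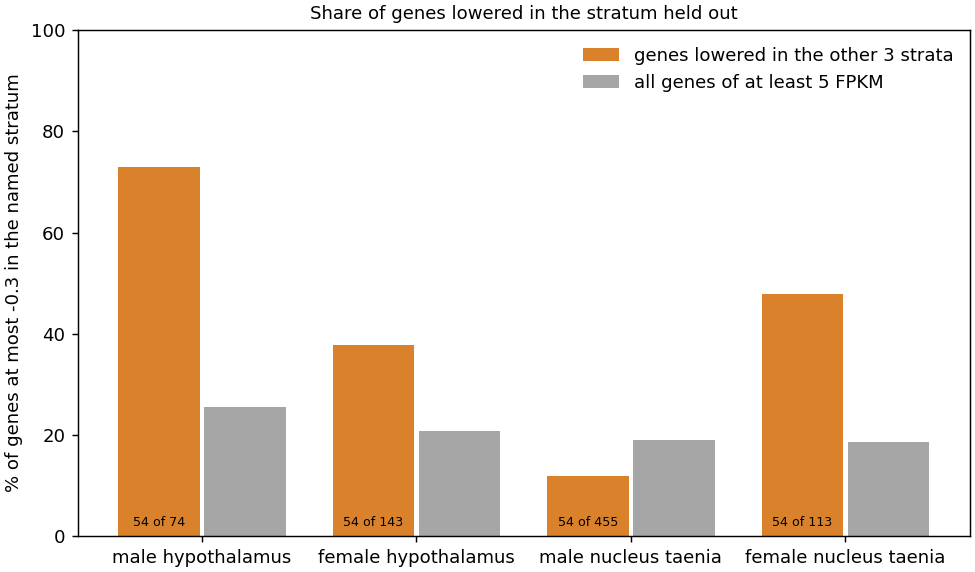
Percent of genes at most −0.3 in each stratum, for genes chosen as lower in the other 3 strata (orange, with counts) and for all 11006 genes (grey). The orange bar is above the grey one in the male hypothalamus, the female hypothalamus and the female nucleus taenia, and below it in the male nucleus taenia, where 54 of 455 genes were lower.

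Between the sexes the shares were closer to those of all genes, which are no level expected by chance here either. Whether birds shared between regions have a part in this was not tested. Of 545 genes lower in both male strata, 54, or 9.91%, were lower in both female strata, where 7.63% of all genes were. Of 840 genes lower in both female strata, 6.43% were lower in both male strata, against 4.95% of all genes. Between the regions, 54 of the 905 genes lower in both hypothalamus strata, or 5.97%, were lower in both nucleus taenia strata, against 2.49% of all genes. The same 54 were 19.7% of the 274 genes lower in both nucleus taenia strata, against 8.22% of all genes that were lower in both hypothalamus strata. Across the 11006 genes the male nucleus taenia differences had a correlation of −0.05 with those of the male hypothalamus. The correlation was −0.22 with the female hypothalamus and −0.25 with the female nucleus taenia. The male hypothalamus differences had 0.17 with the female hypothalamus and 0.37 with the female nucleus taenia, of the other sex and region. The 2 female strata had 0.38 with each other.

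1 library weighed on the male nucleus taenia. When a library was left out, only the 4 differences were taken again, and the genes of at least 5 FPKM over the 23 libraries were kept. Without male testosterone nucleus taenia replicate 2, 131 genes met the rule, 47 of them among the 54. Without it, 28.8% of the genes chosen in the other 3 strata were also lower in the male nucleus taenia. Without female testosterone hypothalamus replicate 1, 82 genes met the rule. Without each of the other 21 libraries in turn the number was 42 to 76. Only 3 of the 54 members met the rule whichever of the 23 libraries was left out, 2 failed without exactly 1 library, 27 failed without 2 to 4 of them and 22 failed without 5 or more.

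The number of members was set against the number found when treatment labels were exchanged within sex and region, as the selection rule asks. Over all 80000 such arrangements of the 23 libraries the count ran from 0 to 559, with a median of 33. It was 54 or more in 21523 of them, or 26.9% (exact permutation test, one-sided p = 0.269). The number of genes lower in all 4 testosterone groups was therefore not past a threshold of 0.05. Exchanging each library on its own does not keep the numbered pairs together, which share their on-off states. When the 2 libraries of a numbered pair exchanged their label together, an arrangement added after the data were seen, 282 of 400 arrangements, or 70.5%, gave 54 genes or more (exact permutation test, one-sided p = 0.705). The median of these arrangements was 65, above the 54 of the labelled one.

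**Figure D5:**
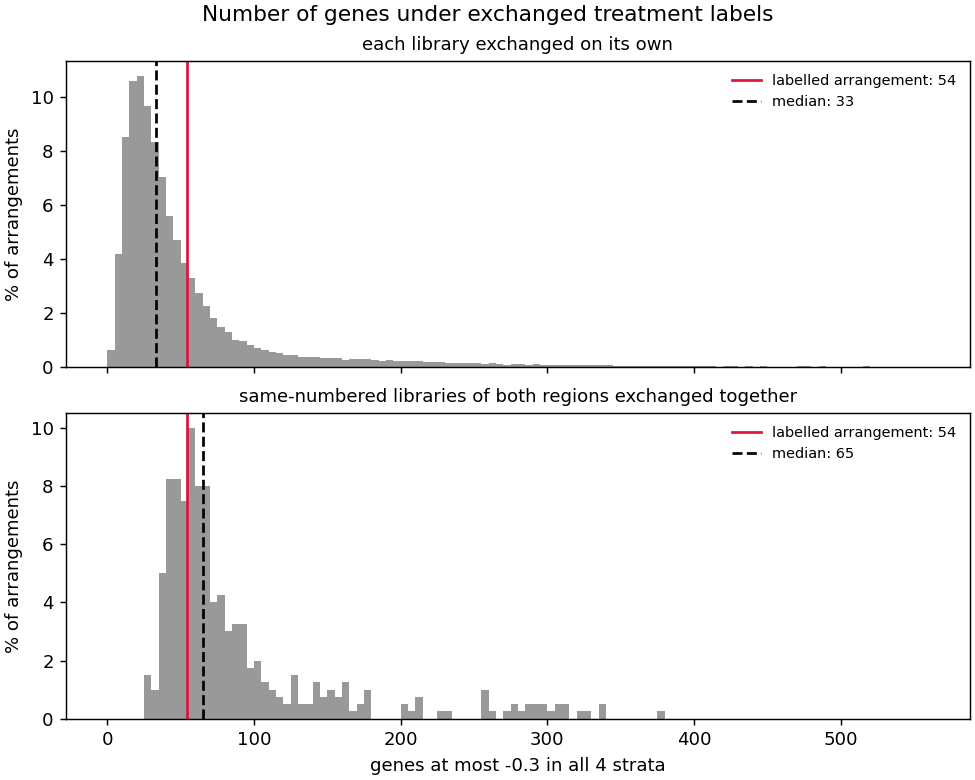
Number of genes at most −0.3 in all 4 strata (horizontal) under every exchange of the treatment labels, as percent of arrangements (vertical), for libraries exchanged singly (top, 80000 arrangements) and for numbered pairs exchanged together (bottom, 400 arrangements). The labelled count of 54 (red line) lies above the median of 33 in the top panel and below the median of 65 in the bottom panel.

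Across the whole table, limma found 0 of 11006 genes, or 0%, past an adjusted p of 0.05 for testosterone against oil averaged over the 4 strata, and so 0 of the 54 members. At an unadjusted p under 0.05 there were 702 genes, or 6.38%, and the smallest adjusted p was 0.216. The fit did not pair same-numbered libraries of the 2 regions, whose deviations had a median correlation of 0.27 across all genes. If such libraries share a bird, which the labels do not say, these p-values can be too small. The rule used the testosterone and oil contrast, so no count of members at the unadjusted threshold is read.

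Sex and region, averaged over treatment, took no part in the choice. In the nucleus taenia limma called 223 of 11006 genes, or 2.03%, between males and females, and 0 of the 54 members, whose smallest adjusted p was 0.246. At an unadjusted p under 0.05 there were 3 members, or 5.56%, where 13% of all genes passed. In the hypothalamus it called 153 genes, or 1.39%, and 0 members, with a smallest adjusted p of 0.243 among them, and 3 members, or 5.56%, against 8.4% of all genes at the unadjusted threshold. The members' male-minus-female differences had a median of −0.10 (−1.45 to 1.83) in the nucleus taenia and −0.15 (−1.78 to 2.48) in the hypothalamus, and 22 and 19 of the 54 were higher in males. The 95% interval of a member's sex difference had a median half-width of 0.95 in the nucleus taenia and 1.00 in the hypothalamus, about 2 times the 0.48 and 0.50 of all genes, so differences of moderate size were not detectable in most members.

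Between hypothalamus and nucleus taenia, in a fit that did not pair same-numbered libraries, limma called 0 of 11006 genes, or 0%, and 0 members. At an unadjusted p under 0.05 there were 4 members, or 7.41%, and 6.01% of all genes. The members' hypothalamus-minus-nucleus taenia differences had a median of −0.03 (−2.63 to 1.26) with a median half-width of 0.69, and 22 of the 54 were higher in the hypothalamus.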

How the data were processed

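RNA from punches of adult zebra finch brain was sequenced from strand-specific mRNA libraries, per the labels. The deposited values are FPKM that the authors computed for 17475 genes in 24 libraries; cutadapt 1.9.1, TopHat2 2.1.1 and Cufflinks 2.2.1 are named in the submitters' processing notes. Genome build and annotation were not given in the sources used here. FPKM removes depth and gene length, so absolute depth is unknown; relative depth was fitted to the commonest ratios of values under 0.2 FPKM between libraries, and 82.6% of the 69 sharpest of 276 pairs lay within 3% of the fit, so it is rough. A value listed at 0 can be a failed estimate. The 24 methylation samples were not analysed here.

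The members and lists were chosen with earlier results of these data known. Differences were taken on log2(FPKM + 1), which understates the change of low genes. Label exchanges were enumerated with numpy 2.4.6. limma 3.58.1 in R 4.3.3 fitted 1 mean per group to 23 libraries, with a variance trend and Benjamini-Hochberg adjustment over the 11006 genes of at least 5 FPKM. The label exchange and the limma fit were tested on simulated data with each library drawn independently. Those data did not hold the states that numbered pairs share, so they are no check of the procedures in that respect. Since the identifiers have no names, the naming rule prints 2 of them. Alternatives were pseudocounts, filters, scalings, thresholds, robust moderation, a block for the replicate number, and fits without single libraries. Same-numbered libraries were taken as pairs only if every pair's deviations correlated above 0.1 across genes, which 10 of 12 region pairs, 6 of 12 treatment pairs and 3 of 12 sex pairs did. Figures were drawn with matplotlib 3.10.9.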

Additional observations from a re-analysis of the deposited data

How the results depend on the processing

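The number of genes lower in all 4 testosterone groups, 54, depended on the settings. It was 63 with a pseudocount of 0.1 and 31 with 5, 102 with a minimum mean of 1 FPKM, 35 with 10 and 113 with no filter, and 112 and 20 with thresholds of −0.2 and −0.5. It was 55 with median-ratio scaling (51 shared with the 54) and 55 with quantile normalization (43 shared). With female testosterone hypothalamus replicate 3 included it was 94. Taking same-numbered libraries of both treatments only gave 57 (41 shared). That choice drops female oil hypothalamus replicate 3 alone, so it repeats the count without that library and is no separate alternative. Leaving out 1 library gave 42 to 131. Leaving out both male testosterone libraries numbered 2, chosen after the data were seen, gave 155 (one-sided exact permutation p = 0.0563). Without 1 library the exact permutation p ran from 0.0719 to 0.403. These counts kept the genes of at least 5 FPKM over the 23 libraries. Their p-values came from exchanging each library on its own, which does not keep numbered pairs together. With all 23 libraries, keeping the pairs together moved the exact permutation p from 0.269 to 0.705. Nothing is therefore read from the lower p-values. The share read in the held-out stratum ran, without single libraries, from 59.4% to 75.3% in the male hypothalamus, 32.2% to 57.3% in the female hypothalamus, 9.23% to 28.8% in the male nucleus taenia (8.86% with a pseudocount of 5) and 38.1% to 58.4% in the female nucleus taenia. The share of members lower in the library left out ran from 70.4% to 74.1%. The mean pairwise correlation of deviations was 0.0516 and 0.0635 with pseudocounts of 0.1 and 5, and 0.0377 to 0.0658 without single libraries. limma called 0 members for sex and for region under all alternatives run. With the replicate block it called 91 of all genes for sex in the nucleus taenia and 55 in the hypothalamus. That fit took the sex difference at replicate number 3 of each sex, not at the mean over the numbers. These counts are therefore no check of the sex result. The calls over all genes moved from 223 to 441 in the nucleus taenia without male testosterone replicate 3 there. In the hypothalamus they moved from 153 to 93 with female testosterone hypothalamus replicate 3 included, and to 90 without replicate 1 of that group. For treatment, the contrast that the rule used, limma called 0 to 1 of all genes without single libraries. The 1 was a member without male testosterone hypothalamus replicate 3 (limma adjusted p = 0.0145). It was not a member without female testosterone hypothalamus replicate 2 or without male oil nucleus taenia replicate 2. Every other alternative called 0 members for treatment, and nothing is read from the 1. With a replicate block within sex and treatment, added after the data were seen, limma again called 0 genes and 0 members between the regions, while genes at an unadjusted p under 0.05 went from 662 to 1122. The intervals of the members' sex and region differences, about 2 times as wide as those of all genes, limit what could be detected in them.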
